A study of Mus musculus with 16 samples.

Results

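The 82 genes described here encode the proteins of the cytosolic ribosome and 5 close paralogs of them, measured in mouse whole skin. They are the protein-coding genes whose symbols begin with Rpl or Rps followed by a number, together with Rpsa, Rplp0, Rplp1 and Rplp2, and without the Rps6k kinases. They make up 82 of the 32078 genes of the deposited table, with 32 named for the small subunit and 50 for the large one. The paralogs are Rps27l, Rpl3l, Rpl7l1, Rpl22l1 and Rpl39l, which leaves 31 small and 46 large subunit genes. Fau and Rack1 also give ribosomal proteins but carry other kinds of symbol, and they are given below among the related genes.

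RNA of whole skin from 7-week-old mice was sequenced in 16 libraries, 8 groups of 2, from skin treated with SDS (sodium dodecyl sulfate, an irritant detergent) on its surface. The groups are SDS with Topsym at days 0, 1, 3 and 5 and SDS without Topsym at days 0, 1, 3 and 5. Topsym is known as a trade name of fluocinonide preparations, strong glucocorticoids for the skin. The protocol gives 4 days of topical treatment while the titles run to day 5, and the sources used here give neither when each treatment began nor how the Topsym mice of day 0 had been treated. The series' design text speaks of fatty acids and sorted stem cells, which are not these samples, so the groups rest on the samples' own labels. Strain, sex and genotype are not given either, and no later group lacks SDS, so SDS, time and the skin sampled cannot be told apart in the changes from day 0. The 2 libraries of a group are not said to be from different animals, and a p-value thus measures only how far these libraries scatter, technical scatter included.

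Ribosomes translate mRNA into protein. The small subunit reads the message and the large subunit joins the amino acids, and each ribosomal protein is needed in about equal amounts with the ribosomal RNA. The mRNAs of ribosomal proteins begin with a run of pyrimidines (C and T) just at the cap, the terminal oligopyrimidine or TOP motif, and growth signals through mTOR set how well they are translated. In skin, glucocorticoids are known to slow the growth of keratinocytes and to thin the tissue.

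Most of the start windows found for these genes held a run of pyrimidines near the annotated start. RefSeq's promoter table for GRCm38.p6, the same assembly as the mm10 of the deposited values, had 74 windows for 62 of the 82 genes, since 10 genes had more than 1. The following 60 bases reach from 40 before the annotated start to 20 from the start on, with the longest run of C or T close to the start in capitals and runs farther upstream left in lower case. The first 8 are core members of both subunits and the stalk, chosen to show the pyrimidine run.
Rps6 (chr4:86857348-86857407, minus strand): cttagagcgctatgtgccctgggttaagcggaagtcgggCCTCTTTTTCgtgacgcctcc
Rps27 (chr3:90213629-90213688, minus strand): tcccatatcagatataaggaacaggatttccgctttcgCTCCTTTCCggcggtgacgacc
Rplp2 (chr7:141447611-141447670, plus strand): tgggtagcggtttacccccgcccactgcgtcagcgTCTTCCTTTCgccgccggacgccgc
Rpl5 (chr5:107900488-107900547, plus strand): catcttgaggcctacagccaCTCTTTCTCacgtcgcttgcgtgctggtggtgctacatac
Rpl18 (chr7:45718031-45718090, plus strand): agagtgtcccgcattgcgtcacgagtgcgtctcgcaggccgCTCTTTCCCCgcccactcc
Rpl28 (chr7:4792925-4792984, plus strand): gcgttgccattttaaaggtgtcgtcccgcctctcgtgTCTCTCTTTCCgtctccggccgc
Rpl35 (chr2:39005112-39005171, minus strand): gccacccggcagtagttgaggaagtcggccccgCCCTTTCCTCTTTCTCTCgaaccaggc
Rpl13a (chr7:45128726-45128785, minus strand): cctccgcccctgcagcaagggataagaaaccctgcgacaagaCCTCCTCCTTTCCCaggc
The last 4 are paralogs, which are shown for comparison as relatives of the core members. The 60 bases shown are not the stretch searched below. In that stretch the longest run was 9 in the window of Rpl3l shown, 10 in Rpl22l1, 7 in Rpl39l and 3 in Rpl7l1. Among core genes not shown, Rps28 and Rps3 had longest runs of 4 and 5 there.
Rpl3l (chr17:24727786-24727845, plus strand): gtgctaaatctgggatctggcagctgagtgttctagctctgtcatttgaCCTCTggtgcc
Rpl39l (chr16:10170188-10170247, plus strand): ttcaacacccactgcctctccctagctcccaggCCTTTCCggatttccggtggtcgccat
Rpl22l1 (chr3:28805468-28805527, plus strand): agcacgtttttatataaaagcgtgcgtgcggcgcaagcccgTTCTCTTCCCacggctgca
Rpl7l1 (chr17:46782637-46782696, minus strand): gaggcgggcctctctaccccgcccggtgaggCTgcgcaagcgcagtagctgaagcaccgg
A run of at least 8 C or T on the transcribed strand, between 20 bases before and 50 after the start, was held by 50 of the 74 windows (67.6%), against 25.4% of all 32851 windows of the table. The motif CTCTTTC, searched on the same strand and stretch and able to overlap such a run, was in 13 of the 74 windows (17.6%), against 0.941% of all windows. CCGGAAG, a core of ETS factor sites, was found on either strand between 250 bases before and 50 after the start in 36.5% of the windows, against 8.86% of all. TCTCGCG, searched in the same way, was in 20.3%, against 2.56% of all. TATAAA on the transcribed strand was in 8.11%, against 8.32% of all. These are matches of letters, not sites of binding. A run counted here may lie wholly before the annotated start, as in Rpl5, so 67.6% is not a rate of TOP motifs at the cap.

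All 82 genes passed the filter on low values, 10 or more in 2 or more libraries, as did 19189 genes in all. Levels are given in normalised reads and differences on the scale log2(normalised reads + 1), followed by ± and the standard error (SE). Changes were called at an adjusted p under 0.05 by limma over all genes tested. Libraries held 15199656 to 32066246 reads. The 4 day 5 libraries detected 19885 to 20774 genes each and the other 12 at least 22875, and the 10 highest genes took 4.91 to 14.8% of the reads of a library. Markers of skin were present throughout, with 6 basal keratinocyte genes summing to 220692 normalised reads or more in each library.

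The ribosomal protein genes took between 3.43% and 7.14% of all reads. With Topsym their share was 5.62 and 6.04% in the libraries at day 0, 3.45 and 3.43% at day 1, 4.02 and 4.04% at day 3 and 7.13 and 7.14% at day 5. In SDS alone it was 4.11 and 4.26% at day 0, 4.07 and 3.88% at day 1, 3.87 and 3.67% at day 3 and 5.80 and 5.99% at day 5. The day 5 libraries of both arms and the day 0 libraries with Topsym therefore lay above all others, and the day 1 libraries with Topsym lay lowest. With 2 libraries a group, an exact permutation test of a single value cannot give a p below 0.333, so the shares carry no test. In normalised reads, day 5 with Topsym was the highest of the 8 groups for 76 of the 82 genes, and day 1 with Topsym was the lowest for 65. Rpl15, Rpl24, Rpl3l, Rpl4, Rps10 and Rpl39l were highest elsewhere. These counts rest on the deposited scaling and have no share of all genes beside them, so they do not set the members apart from other genes.

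**Figure D1:**
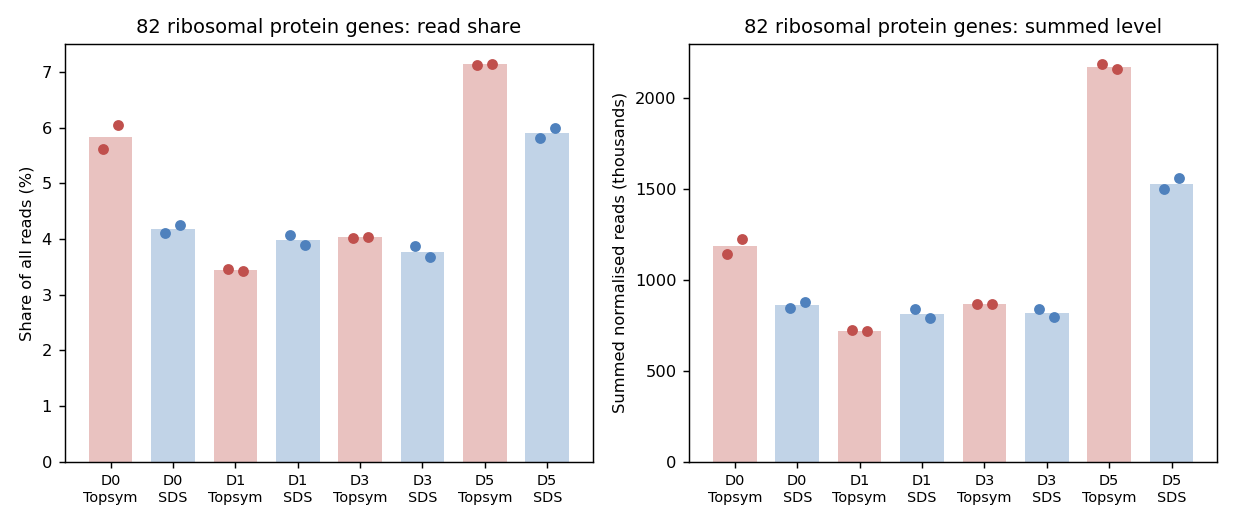
Share of all reads (left, %) and summed normalised reads (right, in units of 1000) of the 82 ribosomal protein genes; points are libraries, bars are means of 2, red is SDS with Topsym and blue is SDS alone. The share runs between 3.43% and 7.14%, highest at day 5 with Topsym and lowest at day 1 with Topsym.

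Means over all libraries were divided by the joined length of all annotated exons of a gene, which can exceed the length of its mRNA. Values per kilobase therefore depend on the annotation, and their differences among members are not differences of expression alone. Rps3 and Rplp1 had means of 21299 and 24327 normalised reads over 4483 and 499 bases of exon. Rplp1, a small acidic protein of the ribosomal stalk, stood at 48751 normalised reads per kilobase and Rplp0, the base of the stalk, at 30874. Rpsa, Rps6 and Rps3 of the small subunit stood at 13839, 17061 and 4751. The median member stood at 6002. At the low end were Rpl24 with 9.53, Rps10 with 30.2, Rpl39l with 79.7, Rpl13a with 284 and Rpl22l1 with 299. Ribosomal protein genes have many processed pseudogenes, near copies that can take reads in counting, and the levels of low members such as Rpl24, Rps10 and Rpl13a are therefore uncertain. The 234 pseudogene rows with an Rpl or Rps symbol marked ps together held 0.152 to 0.306% of the reads of a library. Pseudogene rows under other symbols, such as Rpl6l, Rps4l and Rpl37rt, were not counted, so the whole share of such rows is not known.

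In SDS alone, the first 3 days brought small changes. At day 1 against day 0, 18 of the 82 genes fell and 1 rose, with a median difference of -0.08, while 13.5% of all genes tested fell and 12.8% rose. The largest called fall was that of the muscle paralog Rpl3l, with 954 and 1042 normalised reads at day 1 and 1562 and 1619.6 at day 0 (-0.67 ± 0.09, adjusted p = 3.68e-05, limma). Rps12, a small subunit protein, had 4911 and 5289.9 normalised reads at day 1, against 8254 and 7837 at day 0, and fell by 0.66 on the log2 scale (SE 0.13, adjusted p = 0.000958, limma). Rpl30, of the large subunit, had 4411 and 4497 at day 1 and 5293 and 5949 at day 0, a fall whose call was lost without day 0 replicate 2 or without day 1 replicate 1. The 5S particle proteins Rpl5 and Rpl11, known also to bind the p53 regulator Mdm2, differed by -0.0039 and -0.02 and were not called. Rplp2 of the stalk and Rpsa differed by -0.25 and -0.16 and were called lower, Rpsa not without day 0 replicate 2 or day 1 replicate 2. Rplp0, Rplp1, Rps6, Rps3, Rps27a and Rpl13a differed by -0.08, -0.02, -0.11, -0.08, -0.04 and -0.23 without a call. The gene that rose was Rps10, at 58.3 and 73.0 against 25.5 and 35.3 normalised reads, a gene too low for firm reading. The count of genes that fell was 7 without day 1 replicate 2, 11 without day 0 replicate 1 and 8 without day 0 replicate 2, and the count of rises was 0 without day 0 replicate 1 or day 1 replicate 2. With upper-quartile factors 5 genes rose and 5 fell, with no share of all genes given for that scale.

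At day 3 against day 0 of SDS alone, 24 genes fell and 7 rose, with a median of -0.07, while 24.2% of all genes tested fell and 25.4% rose. Rps12 had the largest called fall, with 5682 and 3747 normalised reads at day 3, against 8254 and 7837 at day 0, a difference of -0.80 ± 0.13 (adjusted p = 5.9e-05, limma). Rps15, a protein of the small subunit head, had 12602 and 12036 at day 3 and 15947 and 16865 at day 0 and fell by 0.41. Rpl41, the shortest ribosomal protein, had 13322 and 13511 at day 3, above the 10686 and 10128 at day 0, and rose by 0.37 ± 0.08. Rpl7a had 8731 and 4981 at day 3 and 1209 and 1588 at day 0, and rose by 2.25 ± 0.85 (adjusted p = 0.0376, limma). That call was lost without any 1 of the 4 libraries compared. The stalk proteins Rplp1 and Rplp2, Rpsa (also known as the laminin receptor), Rps6 (the substrate of S6 kinase) and Rps3 (at the mRNA entry channel) differed by -0.04, -0.07, 0.04, -0.05 and 0.02, and none of these 5 was called. Rplp0, the base of the stalk, differed by -0.16 ± 0.06 and was called lower (adjusted p = 0.0253, limma), a call lost without day 0 replicate 2 or day 3 replicate 2. Rpl5, Rpl11, Rps27a and Rpl13a differed by -0.08, 0.03, 0.04 and -0.26 without a call. Scaled to total reads, 37 genes fell and 6 rose, against 27.8% and 22.3% of all genes. Without day 3 replicate 2 the count of falls was 14, and without day 0 replicate 1 or day 3 replicate 1 the count of rises was 3.

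At day 5 against day 0 of SDS alone, 74 of the 82 genes rose and 2 fell, with a median difference of 0.81, while 30.7% of all genes tested rose and 35.8% fell. All 31 small subunit genes but 2 rose (median 0.80), as did all 46 large subunit genes but 3 (median 0.83). Rplp0 had 74340.5 and 79631 normalised reads at day 5, against 39572 and 42026 at day 0, and rose by 0.92 ± 0.06 (adjusted p = 3.84e-10, limma). Rpsa had 61363 and 62652 at day 5 and 28247 and 28642 at day 0, a rise of 1.12 ± 0.04. In both genes each day 5 library lay far above both day 0 libraries. Rpl41 had the largest rise, with 26724 and 29334 at day 5 and 10686 and 10128 at day 0 (1.43 ± 0.08). Rps27a, which is made as a fusion with ubiquitin, had 10061 and 11342 at day 5 and 4645 and 4449 at day 0 (1.23 ± 0.06). Rps27, a zinc finger protein of the small subunit, had 4422 and 4704 at day 5 and 1837 and 2062 at day 0 (1.23 ± 0.21). No overlap with day 0 was a condition for naming these 3 among the largest rises. Rplp1, Rps6, Rps3, Rpl5, Rpl11 and Rpl13a rose by 0.98, 0.80, 0.95, 0.87, 1.01 and 0.91. The genes without a call were Rpl23a, Rpl24, Rpl7a, Rpl7l1, Rps10 and Rps28, and the 2 that fell were the paralogs Rpl3l and Rpl39l. The size of these rises depends on the scaling, which is set out below for day 5.

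Markers of several cell types moved between the same groups. At day 5 of SDS alone the summed normalised reads of 6 basal keratinocyte genes were 817316 to 867406, against 314504 to 320999 at day 0, with 5 of 6 called higher. Those of 6 genes of dividing cells were 15031 to 15839.5 at day 5 and 7317 to 7662 at day 0, with 6 of 6 higher. Those of 6 fibroblast genes were 14108 to 14318 at day 5 and 289909.9 to 298533 at day 0, with 6 of 6 lower. Those of 8 skeletal muscle genes were 73551 to 77352 at day 5 and 401488 to 408443 at day 0, with 8 of 8 lower. Those of 8 neutrophil genes were 261888 to 271434 at day 5 and 269.5 to 307 at day 0, with 7 called higher. The neutrophil marker Ly6g was at 0 at both days and Ngp at day 0. Their part in the rise of the ribosomal protein genes was not tested. In bulk tissue, fewer cells of a type and less RNA per cell cannot be told apart.

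Already at day 0, the ribosomal protein genes differed between the arms. Compared with skin without Topsym at day 0, 74 of the 82 genes were higher and 1 was lower, with a median difference of 0.47, while 10.8% of all genes tested were higher and 11.2% lower. Rps27a had 8344 and 8246 normalised reads with Topsym, against 4645 and 4449 without, a difference of 0.87 ± 0.06 (adjusted p = 2.74e-08, limma). Rpl41 had 16316 and 20566 with Topsym and 10686 and 10128 without (0.82 ± 0.08). Rpl15, a large subunit protein, had 6184 and 6639 with Topsym and 3951 and 2507 without (1.03 ± 0.23), a call lost without SDS day 0 replicate 2 or Topsym day 0 replicate 2. No overlap between the arms was a condition for naming these genes among the largest differences. Rplp0, Rplp1, Rpsa, Rps6, Rps3, Rpl5, Rpl11 and Rpl13a were higher by 0.35, 0.59, 0.49, 0.45, 0.42, 0.29, 0.52 and 0.53, and the call of Rpl13a was lost without SDS day 0 replicate 2 or Topsym day 0 replicate 1. The gene that was lower was Rpl3l. Scaled to total reads, 74 were higher and 1 lower, against 11.7% and 10.1% of all genes.

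Beside this difference at day 0, the summed normalised reads of the 8 skeletal muscle genes were 136820.0 to 140662 with Topsym, against 401488 to 408443 without, with 8 of 8 lower. The 6 macrophage genes summed to 38245 to 38476 with Topsym and 15405 to 15437 without, and the 5 red blood cell genes to 9701 to 11018 with Topsym and 2401 to 3070.1 without. The 6 fibroblast genes summed to 407197 to 414248 with Topsym and 289909.9 to 298533 without. The 6 basal keratinocyte genes summed to 335915 to 339154 with Topsym and 314504 to 320999 without. Called higher were 6 of 6 macrophage genes, 5 of 5 red blood cell genes, 4 of 6 fibroblast genes and 1 of 6 basal keratinocyte genes, with 1 lower in each of the last 2 lists. The part of these cells in the difference was not tested.

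At day 1 the order of the arms turned round. With Topsym, 28 genes were lower and 1, Rpl3l, was higher, with a median of -0.20, while 4.29% of all genes tested were lower and 5.51% higher. Rpl35a, which is mutated in some patients with Diamond-Blackfan anaemia, had 5344 and 5891 normalised reads with Topsym, against 7406 and 6658 without (-0.32 ± 0.07, adjusted p = 0.0073, limma), a call lost without replicate 1 of either group. Rps16 had 8734 and 8605 with Topsym and 11591 and 10101 without (-0.32 ± 0.05). Both genes were named under a rule that asked for no overlap, and both calls were lost in a fit on only these 4 libraries. Rpl5, Rpl11 and Rps6 differed by -0.27, -0.21 and -0.18 and were called lower. Without SDS day 1 replicate 1 or Topsym day 1 replicate 2 the calls of Rpl11 and Rps6 were lost, and without Topsym day 1 replicate 1 that of Rps6. Rplp0, Rplp1, Rpsa, Rps3, Rps27a and Rpl13a differed by -0.14, -0.12, -0.11, -0.09, -0.15 and 0.35 without a call. The count of lower genes was 10 without SDS day 1 replicate 1, 13 without Topsym day 1 replicate 1 and 14 without Topsym day 1 replicate 2. The skeletal muscle genes summed to 426813 to 433067 with Topsym, against 292039 to 301361 without, with 6 of 8 higher. The 6 macrophage genes summed to 40747 to 40972 with Topsym and 23542 to 24909 without. The 6 fibroblast genes summed to 213808 to 214264 and 162645 to 166216. The 6 basal keratinocyte genes summed to 249095 to 250352 and 268212 to 288665. The 5 red blood cell genes summed to 3196 to 3504 and 5005 to 5484. Adipocyte and endothelial sums were also higher with Topsym, and those of dividing cells and T cells lower. The part of these cells was not tested.

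At day 3 the 2 arms lay close. There 19 genes were higher and 4 lower with Topsym than without, with a median of 0.08, while 20.8% of all genes tested were higher and 22.9% lower. The members' share was near that of all genes among the higher calls and below it among the lower ones. Rpl13a, which is also known for silencing mRNAs of inflammation when freed from the ribosome, had 643 and 618 normalised reads with Topsym, against 299.7 and 308 without (1.05 ± 0.13, adjusted p = 4.21e-06, limma). Rpl15 had 4042 and 5529 with Topsym and 2372 and 2398 without (0.99 ± 0.23). Rpl30 had 3851 and 4047 with Topsym and 4351 and 5223 without, and was lower by 0.27, a call lost without SDS day 3 replicate 2 or Topsym day 3 replicate 1. Rps3 and Rpl5 were higher by 0.15 and 0.15, calls lost without Topsym day 3 replicate 1 and, for Rps3, also without SDS day 3 replicate 2. Rplp0, Rplp1, Rpsa, Rps6, Rpl11 and Rps27a differed by 0.07, 0.13, 0.05, 0.02, 0.02 and 0.08 without a call. With upper-quartile factors 40 genes were higher and 2 lower, with no share of all genes given for that scale. The count of higher genes was 11 without SDS day 3 replicate 2, 11 without Topsym day 3 replicate 1 and 12 without Topsym day 3 replicate 2. The 6 basal keratinocyte genes summed to 568670.4 to 578127 with Topsym and 220692 to 224479 without, with 5 higher and 1 lower, and the 6 genes of dividing cells to 15965 to 16048 and 5705 to 5912, with 6 higher. The 6 fibroblast genes summed to 28167 to 28468 with Topsym and 93899 to 95021 without and the 8 neutrophil genes to 2499 to 2679 and 62814 to 63337, with all 6 and all 8 lower and Ly6g at 0 with Topsym. The part of these cells was not tested.

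At day 5 Topsym went with the highest levels of the series. In Topsym against none, 73 genes were higher and 0 lower by limma, with a median of 0.49, while 22.6% of all genes tested were higher and 24.2% lower. The edgeR and DESeq2 count tests on recovered reads also called 0 members lower, 0 lay below 0 at an unadjusted p under 0.05 by limma, and without Topsym day 5 replicate 1 limma called 1 lower. Scaled to total reads, limma called 49 higher and 3 lower, which were Rpl4, Rpl17 and Rpl5. Rpsa had 110515 and 113380.0 normalised reads with Topsym, against 61363 and 62652 without (0.85 ± 0.04, adjusted p = 1.46e-10, limma). Rplp1 had 64729.9 and 60296 with Topsym and 29609 and 32413 without (1.01 ± 0.08), and Rpl13a had 1519 and 1637 with Topsym and 629 and 743 without (1.21 ± 0.13). Rps13, of the small subunit, had 13305 and 13095 with Topsym and 6684 and 5130.1 without (1.17 ± 0.25), and the low Rps10 had 119 and 101 with Topsym and 38.4 and 36.8 without (1.52 ± 0.28). Rps10 reached the mean of 100 asked for naming only in the Topsym group, so its place among the largest rises is partly set by that filter. Other members moved much less, so the arms differed in proportion as well as in sum. Rps6, Rps3, Rplp0 and Rpl5 were higher by 0.27, 0.27, 0.25 and 0.12, and scaled to total reads by 0.04, 0.04, 0.02 and -0.11, where Rpl5 was called lower and the other 3 were not called. The call of Rpl5 on the deposited scale was lost without replicate 1 of either group, and those of Rpl5 and Rplp0 in a fit on only these 4 libraries. Rpsa and Rplp1 still differed by 0.62 and 0.78 on that scale. The keratinocyte genes summed to 1208989 to 1269686 with Topsym and 817316 to 867406 without, the genes of dividing cells to 20469 to 21172 with Topsym and 15031 to 15839.5 without, and the neutrophil genes to 36327 to 36375 with Topsym and 261888 to 271434 without. Of 6 keratinocyte genes 2 were called higher and 3 lower, of 6 genes of dividing cells 5 were higher, and of 8 neutrophil genes 7 were lower. Ly6g was at 0 in both groups. The part of these cells was not tested.

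**Figure D2:**
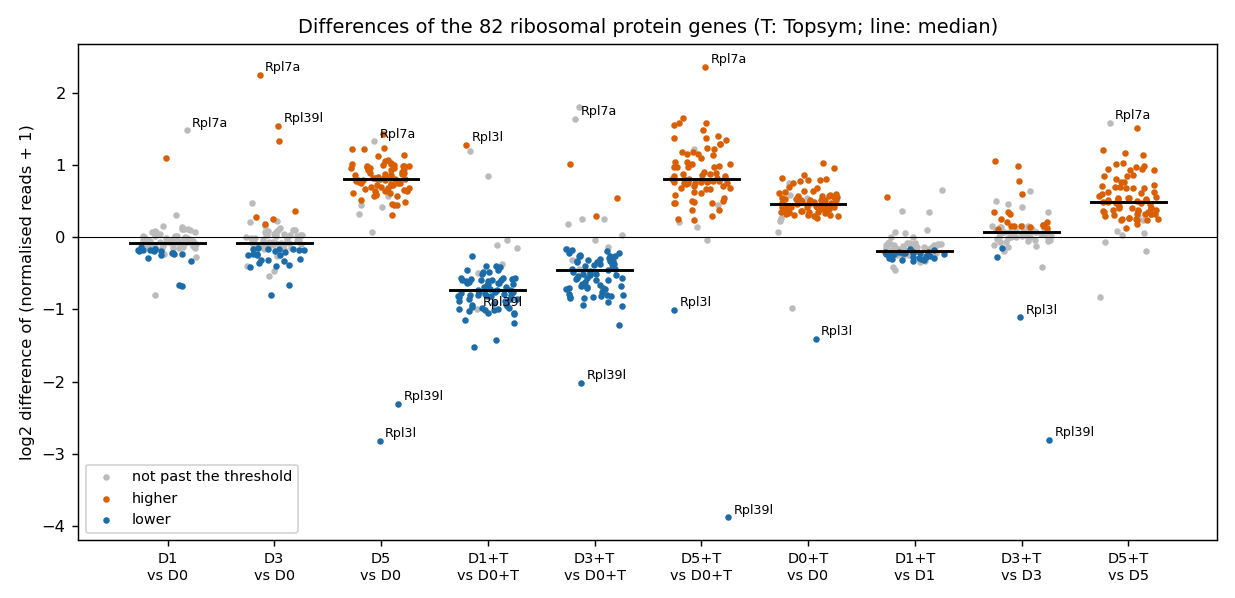
Differences of log2(normalised reads + 1) for each of the 82 ribosomal protein genes in 10 comparisons, with T for Topsym; orange points were called higher, blue lower and grey not, and black lines are medians. The medians lie at 0.81 for day 5 against day 0 in both arms, at -0.74 and -0.46 for days 1 and 3 with Topsym against their day 0, and within 0.20 of 0 for days 1 and 3 of SDS alone and for Topsym against none at those days.

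Within the Topsym arm, the course over days started from its high day 0. At day 1 against day 0 with Topsym, 73 genes fell and 1 rose (median -0.74), while 20.5% of all genes tested fell and 20.3% rose. Rps12 had 4194 and 4297 normalised reads at day 1, against 10574 and 12382 at day 0 (-1.43 ± 0.13, adjusted p = 1.31e-07, limma). Rps27a fell by 1.06 and Rplp0 by 0.57. The gene that rose was Rpl3l, and 2 rose without either day 0 library. The 8 skeletal muscle genes summed to 426813 to 433067 at day 1 and 136820.0 to 140662 at day 0 with Topsym, with 8 of 8 higher. The 6 fibroblast genes summed to 213808 to 214264 at day 1 and 407197 to 414248 at day 0, the 6 genes of dividing cells to 4239 to 4311 and 9107 to 9121, and the 5 red blood cell genes to 3196 to 3504 and 9701 to 11018. In these 3 lists 5 of 6, 5 of 6 and 4 of 5 were called lower, and the part of these cells was not tested. At day 3 against day 0 with Topsym, 67 genes fell and 3 rose (median -0.46), while 28.2% of all genes fell and 27.0% rose. The genes that rose were the paralog Rpl7l1, the low Rps10 and Rps2, of the small subunit, and 5 rose without day 0 replicate 2. At day 5 against day 0 with Topsym, 75 genes rose and 2 fell (median 0.81), while 32.8% of all genes rose and 37.5% fell. Rpsa had 110515 and 113380.0 at day 5 and 39608 and 40353 at day 0 (1.49 ± 0.04), and Rpl41 had 54133 and 53499 at day 5 and 16316 and 20566 at day 0 (1.55 ± 0.08). These 3 comparisons share the day 0 libraries with Topsym, and all of them rest on those 2 libraries.

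The difference of the 2 arms in their change from day 0 was tested as an interaction. For day 1 it was negative in 70 genes and positive in 1, Rpl3l, with a median of -0.68, while 8.06% of all genes tested were negative and 9.18% positive. For day 3 it was negative in 59 and positive in 2, Rpl13a and Rpl7l1, with a median of -0.37, against 19.5% negative and 19.5% positive of all genes. The count of positive genes was 0 without Topsym day 3 replicate 1 and 1 without the other libraries that enter it, each left out in turn. For day 5 it was positive in 15 and negative in 11, with a median of 0.03, against 17.3% positive and 17.7% negative of all genes. Rps27a had -1.02 ± 0.09 for day 1 (adjusted p = 4.07e-07, limma) and -0.26 ± 0.09 for day 5, where the call was lost without SDS day 0 replicate 2, SDS day 5 replicate 2, Topsym day 5 replicate 2 or either Topsym day 0 library. Among the 15 positive genes of day 5 were Rpsa (0.36), Rplp1 (0.42), Rplp2 (0.39), Rps15 (0.40) and Rpl13a (0.67). Without SDS day 0 replicate 2 or Topsym day 0 replicate 1 the call of Rplp1 was lost, and without SDS day 0 replicate 1 or Topsym day 0 replicate 2 that of Rpl13a. Among the 11 negative ones were Rpl4, Rpl5 and Rpl11, with -0.37, -0.17 and -0.19. The calls of Rpl5 and Rpl11 were lost without SDS day 0 replicate 1, Topsym day 0 replicate 2 or replicate 2 of either day 5 group. Scaled to total reads, the day 5 interaction was positive in 2 genes and negative in 38 (9.39% and 28.0% of all genes). With upper-quartile factors it was positive in 16 and negative in 5, with no share of all genes given for that scale. Its positive count was 9 without SDS day 0 replicate 2 and 9 without Topsym day 0 replicate 1. Its negative count was 7 without SDS day 0 replicate 2, 4 without SDS day 5 replicate 2, 4 without Topsym day 0 replicate 2 and 7 without Topsym day 5 replicate 2.

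The day 5 values need a caution on scaling. The deposited scaling takes most genes as unchanged, and the day 5 libraries detect fewer genes and give more of their reads to a few. Scaled to total reads, the median difference of all genes tested shifted by -0.33 for day 5 against day 0 of SDS alone, by -0.57 for the same days with Topsym and by -0.23 for Topsym against none at day 5. On that scale 67 members rose and 3 fell at day 5 of SDS alone, with a median of 0.47, while 20.2% of all genes rose and 47.5% fell. With Topsym 54 rose and 12 fell at day 5 against day 0 (median 0.23), against 16.3% and 55.2% of all genes. In Topsym against none at day 5, 49 were higher and 3 lower (median 0.26), against 12.6% and 35.8% of all genes. The read share itself was 1.41 times as high at day 5 as at day 0 of SDS alone, where the sum of normalised reads was 1.77 times as high. For day 5 against day 0 with Topsym the ratios were 1.22 for the share and 1.83 for the sum, and for Topsym against none at day 5 they were 1.21 and 1.42. At day 0, Topsym against none gave 1.39 and 1.37. Upper-quartile factors moved the median of all genes the other way at day 5, by 0.23 with Topsym and 0.18 without. The median member thus rose on each scale used, while its size ran from 0.47 to 1.00 at day 5 of SDS alone and from 0.23 to 1.05 with Topsym.

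**Figure D3:**
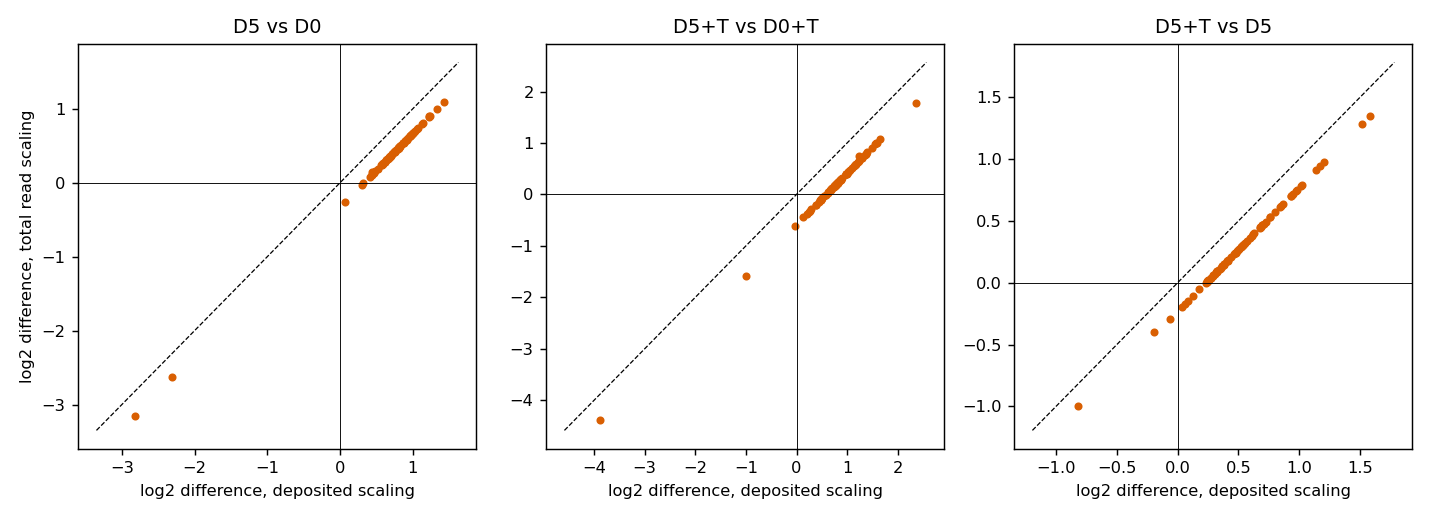
Log2 differences of the 82 ribosomal protein genes at day 5 with the deposited scaling (x axis) against scaling to total reads (y axis), in 3 comparisons with T for Topsym; the dashed line marks equal values. Every point lies below the line, and the median member falls to 0.47, 0.23 and 0.26 on the y axis, against 0.81, 0.81 and 0.49 on the x axis.

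Among the paralogs, Rps27l followed the core genes (Pearson r of 0.986 with the mean of the members) while Rpl22l1 and Rpl7l1 had an r of 0.77 and 0.60 and Rpl3l one of -0.82. Rpl3l (chr17:24727820-24736143, mm10), which takes the place of Rpl3 in skeletal and heart muscle, fell at day 5 of SDS alone, where most core genes rose. Against day 0 it also differed by -0.67 and -0.66 at days 1 and 3 of SDS alone, where few core genes rose. It had 239 and 211 normalised reads at day 5 of SDS alone, against 1562 and 1619.6 at day 0, and fell by 2.82 on the log2 scale (SE 0.09, adjusted p = 1.23e-13, limma). Rpl3 had 26003 and 26475 at day 5 and 15743 and 16703 at day 0 (0.69 ± 0.04). With Topsym against none, Rpl3l had 618 and 582 against 1562 and 1619.6 at day 0 and 1461 and 1461 against 954 and 1042 at day 1, differences of -1.41 and 0.55. At day 3 it had 476 and 453 with Topsym and 1066 and 944 without (-1.11), and at day 5 280.3 and 318 with Topsym and 239 and 211 without (0.41), the day 5 call being lost in a fit on only those 4 libraries or with scaling to total reads. The 8 skeletal muscle genes summed to 136820.0 to 140662 with Topsym and 401488 to 408443 without at day 0, to 426813 to 433067 and 292039 to 301361 at day 1, to 177777 to 182700.2 and 382472 to 384884 at day 3 and to 115880.2 to 119345 and 73551 to 77352 at day 5. Rpl3l and that sum were thus higher with Topsym at days 1 and 5 and lower at days 0 and 3. The part of muscle in these values was not tested. Over the 16 libraries, Rpl3l had a Pearson r of -0.82 with the mean log2 value of the 79 members that had a mean of at least 100, itself included, a description of libraries that share groups.

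Rpl39l, known from mouse testis as the paralog of Rpl39, was low throughout and moved apart from its parent. It had 195 and 183 normalised reads at day 3 of SDS alone, against 57.3 and 71.3 at day 0 (1.55 ± 0.45, adjusted p = 0.00966, limma), a call lost without SDS day 0 replicate 1 or day 3 replicate 1. At day 5 it had 8.54 and 17.0 (-2.31 ± 0.45 against day 0). At day 3 with Topsym it had 22.9 and 29.5, against 195 and 183 without (-2.81 ± 0.45, adjusted p = 8.05e-05, limma). Rpl39 had 3511 and 3326 with Topsym and 3534 and 3302 without at day 3, a log2 difference of 0.0007 that was not called.

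Rpl22l1, the paralog of Rpl22, had 703 and 658 normalised reads with Topsym at day 3, against 411 and 380.0 without (0.78 ± 0.20), and 1327 and 1062 with Topsym at day 5, against 753 and 479 without (0.98 ± 0.20), the call at day 5 being lost in a fit on only the 4 libraries compared. Rpl22 was higher by 0.12 and 0.41 at those days, the call at day 3 being lost without either SDS library or Topsym replicate 2. Rpl22 itself fell by 0.21 at day 1 and by 0.41 at day 3 of SDS alone, where Rpl22l1 differed by 0.12 and 0.10 without a call. Rps27l, a p53 target close to Rps27, had 1908 and 1933 at day 5 with Topsym and 1524 and 1366 at day 5 of SDS alone (0.41 ± 0.07), and 1012 and 999 at day 0 of SDS alone. Rpl7l1, a nucleolar relative of Rpl7 that acts in ribosome assembly, had 1428 and 1477 at day 5 of SDS alone and 1353 and 1409.6 at day 0 (0.07 ± 0.07, adjusted p = 0.337, limma). With Topsym it had 2148 and 2073 at day 3, against 1603 and 1706 without (0.35 ± 0.07), and 2935 and 2762 at day 5, against 1428 and 1477 without (0.97 ± 0.07). Rpl7 was higher by 0.12 at day 3, a call lost without any 1 of the 4 libraries, and by 0.18 at day 5.

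**Figure D4:**
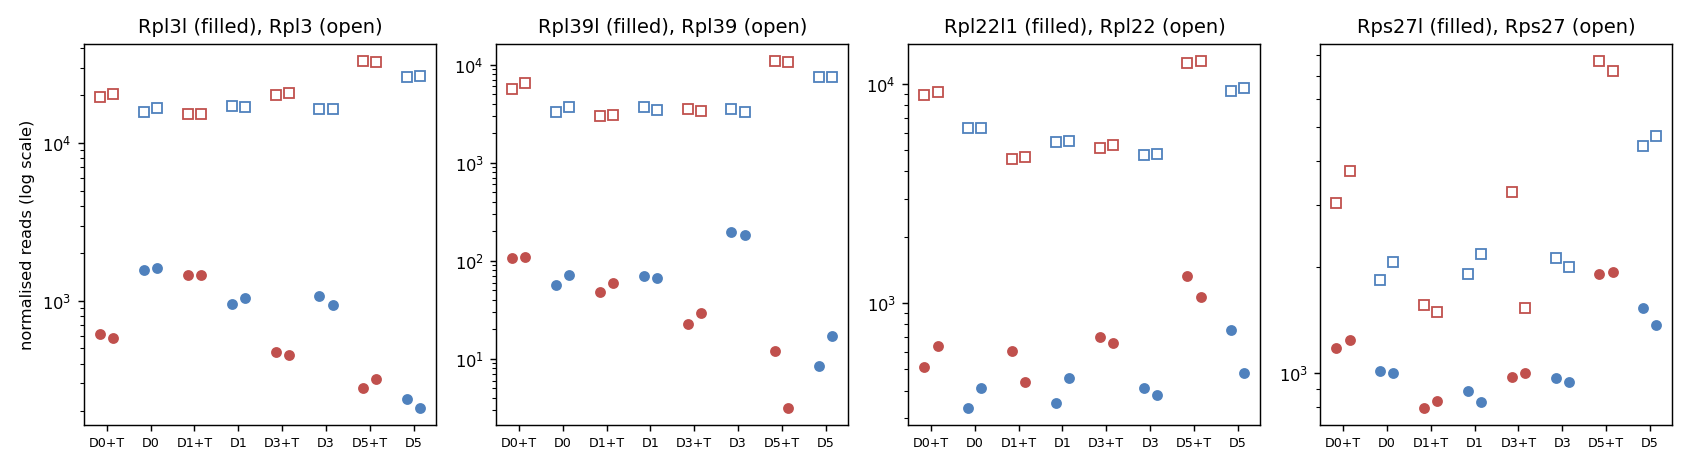
Normalised reads (log scale) of 4 paralogs (filled circles) and their parent genes (open squares) in each of the 16 libraries, red for SDS with Topsym (T) and blue for SDS alone. Rpl3l runs between 211 and 1619.6 and is lowest in the day 5 libraries of both arms, where Rpl3 is highest.

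Most members agreed closely between the libraries of a group, and a few did not. The median ratio of the higher to the lower library was 1.06 over all members and groups, and 70 of the 82 genes stayed under 1.5 in every group. Rpl7a was the least alike, with 495 and 8246 normalised reads in the day 0 libraries with Topsym and 7381 and 1641 at day 5 of SDS alone. Rpl23a had 2474 and 623 at day 1 with Topsym and 947 and 3083 at day 1 without. Rps28 had 5371 and 12886 at day 5 with Topsym and 4938 and 2184 at day 3 without, and Rps27 had 3257 and 1523 at day 3 with Topsym. Rps13 had 3078 and 6309 at day 0 with Topsym. Rpl24, at 9.05 and 0.813 there, and Rpl39l, at 12.1 and 3.20 at day 5 with Topsym, were at a few reads. Over the 16 libraries, 69 of the 79 members with a mean of at least 100 had a Pearson r above 0.9 with the mean log2 value of the 79, themselves included. Rpl7a, Rpl7l1, Rpl15 and Rpl23a had 0.29, 0.60, 0.64 and 0.66.

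Other genes of translation were counted in lists chosen with earlier results of these data known. Of 25 genes for elongation factors and other known TOP mRNAs, 24 rose at day 5 of SDS alone (30.7% of all genes), and 19 were higher with Topsym at day 0 (10.8% of all genes). Fau, a ubiquitin-like fusion that gives a small subunit protein, had 15011 and 15815 normalised reads at day 5 and 7804 and 8284 at day 0 (0.94 ± 0.07), and was higher by 0.55 with Topsym at day 0. Rack1, a scaffold on the small subunit, rose by 0.88 at day 5 and was higher by 0.37 with Topsym at day 0. The elongation factor genes Eef1a1 and Eef2 rose by 0.79 and 0.51 at day 5. In Topsym against none at day 5, Eef1a1 was lower, with 152053 and 151625 with Topsym and 180733 and 175782 without (-0.23 ± 0.04), where 73 ribosomal protein genes were higher. Tpt1, another TOP mRNA, fell by 0.24 at day 3 and rose by 0.23 at day 5.

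Genes that build ribosomes rose from day 1 on in SDS alone. Of 35 ribosome biogenesis genes, 25 rose at day 1 of SDS alone, 33 at day 3 and 34 at day 5, against 12.8%, 25.4% and 30.7% of all genes, with medians of 0.32, 0.64 and 0.86. The medians of all genes tested were -0.03, -0.01 and -0.09. Ncl, the nucleolar protein nucleolin, had 14912 and 15346 normalised reads at day 1, 22139.9 and 23211 at day 3 and 29357 and 30809 at day 5, against 11295 and 10218 at day 0. Fbl, the methyltransferase of ribosomal RNA, rose by 0.28, 0.36 and 0.95 over those days, and Npm1, a nucleolar chaperone, by 0.30, 0.65 and 1.39. In Topsym against none, 5 of the 35 were higher at day 0, 1 at day 1, 26 at day 3 and 21 at day 5, against 10.8%, 5.51%, 20.8% and 22.6% of all genes. At day 3, Npm1 had 20195 and 19635 with Topsym and 10744 and 11109 without (0.87 ± 0.04), while Rps6 differed by 0.02. Nop58 and Dkc1, of the small nucleolar RNA particles, were higher by 0.89 and 0.79 there.

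Of 28 translation initiation factors, 13, 23 and 26 rose at days 1, 3 and 5 of SDS alone, against 12.8%, 25.4% and 30.7% of all genes. Eif6, which keeps large subunits from joining early, rose by 0.73 at day 1 and 1.89 at day 5. Of 77 mitochondrial ribosomal proteins, 62 rose and 2 fell at day 5 of SDS alone (30.7% and 35.8% of all genes), with a median of 0.54. At day 1, 1 rose and 17 fell (12.8% and 13.5% of all genes), with Mrps36 and Mrps21 falling by 0.76 and 0.58. In Topsym against none at day 0, 15 of the 77 were higher (10.8% of all genes). Of 20 genes of the signals that set ribosome production, 10 rose at day 1 of SDS alone (12.8% of all genes). Ddit4, an inhibitor of mTOR that glucocorticoids are known to induce, had 7703 and 7383 at day 1, 6469.8 and 6101 at day 3 and 3332 and 3140.4 at day 5, against 1353 and 1389.6 at day 0. With Topsym against none it had 1332 and 1429 against 1353 and 1389.6 at day 0 (0.01 ± 0.05) and 2881 and 2933 against 6469.8 and 6101 at day 3 (-1.11 ± 0.05), lower at day 3. Myc, a factor that drives ribosome production, had 2499 and 2663 with Topsym and 3954 and 3791 without at day 5 (-0.59 ± 0.05), where most ribosomal protein genes were higher. The part of Ddit4 and Myc in the levels of the ribosomal protein genes was not tested.

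**Figure D5:**
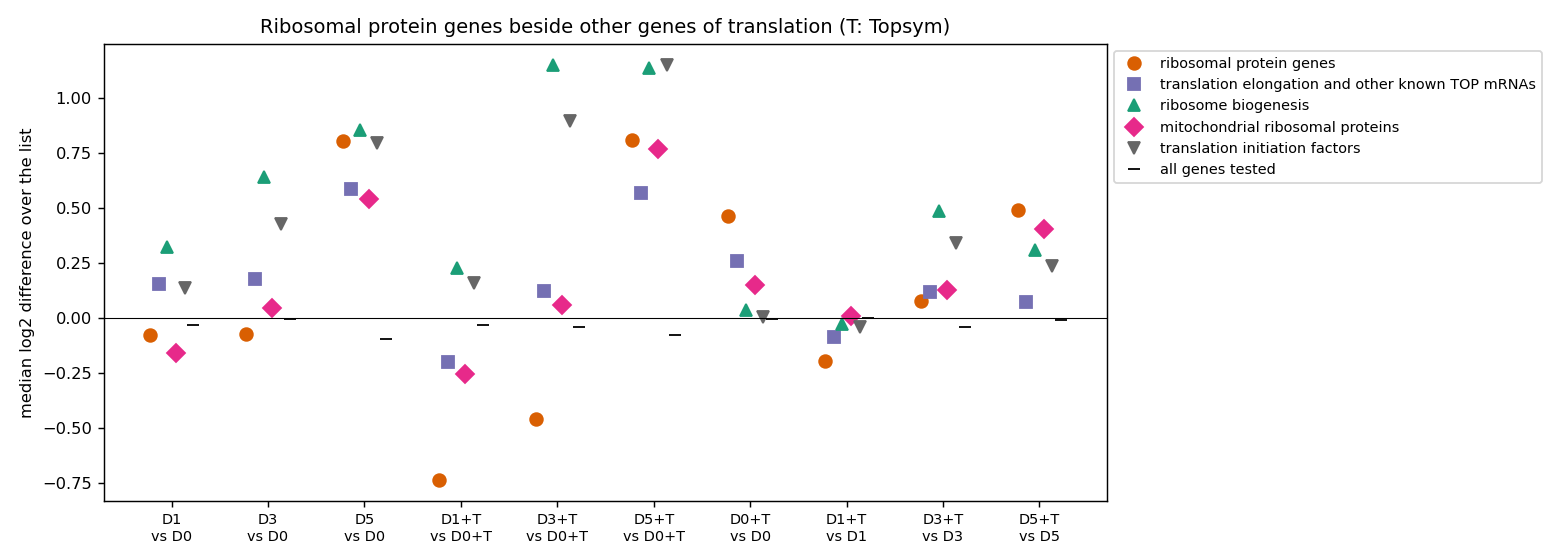
Median log2 difference over each list of genes of translation and over all genes tested, in 10 comparisons with T for Topsym. At days 1 and 3 of SDS alone the ribosome biogenesis list lies at 0.32 and 0.64 and the ribosomal protein genes at -0.08 and -0.07, and at day 0 with Topsym the ribosomal protein genes lie highest at 0.47.

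The genes whose course over the 16 libraries was most like that of the members are given as a description. By Pearson r with the mean log2 value of the 79 members, among other genes with a mean of at least 100, the first 5 were Rps16-ps2 (0.994), Gm10073 (0.991), Rps10-ps2 (0.990), Gm2000 (0.989) and Rpsa-ps10 (0.987). Of the first 50, 19 were annotated as pseudogenes and 31 as coding. The related lists held 4 of the 50, which were Eef1b2, Eif3k, Fau and Rack1. Pseudogene rows such as Rps10-ps2 may share reads with their parent genes, so their likeness carries no separate measurement.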

How the data were processed

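Whole skin RNA of 16 libraries was prepared with an Agilent strand-specific kit, per the labels. The authors used Trim Galore 0.6.7, HISAT2 2.2.1, featureCounts 2.0.3 and DESeq2 2.11.40.8 with mm10, per the submitters' processing notes, and they do not say whether counting used strand. The deposited values are a signal, read counts divided by a size factor per library. In each library 100% of the values were whole reads times 1 step (tolerance 0.0001), which gave back the depths of 15199656 to 32066246. Even counts made up 69.9 to 76.8% of the counts from 1 to 20.

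Groups came from the titles. The main test was limma 3.58.1 (R 4.3.3) on log2(value + 1) with trend, over 19189 genes with at least 10 in at least 2 libraries, with 8 group means and Benjamini-Hochberg adjustment over all genes. It was tested on simulated counts for day 1 against day 0 of SDS alone. There it recovered 49.25% of changes of 1.5 times, 58.21% of 2 times and 84.85% of 4 times, and 4.48% of its calls were false. A gene without a call may therefore still have changed. The simulation changed a small random set of genes with a mean of at least 10, kept all others equal and took the size factors as known. Its rates are therefore not rates for the ribosomal protein genes, for the other comparisons or for errors of scaling. As an alternative, edgeR 4.0.16 on the recovered reads called 2901 genes higher and 2959 lower at day 1 and 6253 and 6533 at day 5 of SDS alone. DESeq2 1.42.0, other scalings, filters and left-out libraries were tried too. The members and lists were chosen with earlier results of these data known. Named members were the 3 largest called rises and falls per comparison with no overlap and a group mean of at least 100. That mean was needed in only 1 of the groups compared. Rps10 in Topsym against none at day 5 and Rpl39l at day 3 reached it in the higher group alone. Also named were 9 core genes, the paralogs with their parents, and up to 4 genes per related list. Within groups, chi-square per degree of freedom over genes was 3.13 to 7.00, so no library was a copy of another. Halved in view of the excess of even counts, it was 1.56 to 3.50. The count tests used the recovered reads without halving. Gene positions are from GENCODE vM21 and start sites from RefSeq (GRCm38.p6), matched by symbol. A few genes that the rule would name are not reported here.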

Additional observations from a re-analysis of the deposited data

Results flagged for a closer look

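The interaction term of the limma fit tested whether the change of each ribosomal protein gene from day 0 differed between the arm with Topsym and the arm of SDS alone. For day 1 the interaction was positive in 1 of the 82 genes and negative in 70, against 9.18% and 8.06% of all genes tested. For day 3 it was positive in 2 and negative in 59, against 19.5% and 19.5% of all genes. For day 5 it was positive in 15 and negative in 11, against 17.3% and 17.7% of all genes, shares close to those of the members, and scaled to total reads it was positive in 2 and negative in 38. All 3 share the day 0 libraries of both arms.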

How the results depend on the processing

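Asking also for a log2 change of at least 1 left these counts of higher and lower genes where they moved by over 1.5 times. Shares of all genes at that cut are not given, so these counts do not set the members apart from other genes. Day 1 of SDS alone kept 0 lower, day 3 had 3 and 0, and day 5 had 12 higher. Against day 0 with Topsym, day 1 had 11 lower, day 3 had 1 and 2, and day 5 had 24 higher. Topsym against none had 1 higher at day 0, 0 and 0 at day 1, 1 and 2 at day 3, and 6 higher at day 5. The interactions had 4 lower for day 1, 0 and 2 for day 3, and 1 and 0 for day 5. Upper-quartile factors gave 5 and 5 at day 1 of SDS alone, 5 higher at day 3 with Topsym, 40 and 2 for Topsym against none at day 3, and 5 lower for the day 5 interaction. Shares of all genes are not given for the upper-quartile scale. Total read scaling gave 37 lower at day 3 of SDS alone, 12 lower at day 5 with Topsym, 3 lower for Topsym against none at day 5, and 2 and 38 for the day 5 interaction. On that scale the log2 difference was -0.26 for Rpl7l1 at day 5 of SDS alone, -0.11 for both Rpl22 and Rpl7 at day 5 with Topsym, -0.11 for Rpl5 and -0.053 for Rpl7 in Topsym against none at day 5, and -0.24 for Rpl3 in the day 5 interaction, all reversed in sign. The fit on only the libraries compared had 6 lower at day 1 of SDS alone and 3 lower for the day 5 interaction. It also ended the calls of Rps16 and Rpl35a in Topsym against none at day 1 and of Rpl22l1, Rplp0 and Rpl3l at day 5. Left without the day 5 libraries, an alternative chosen after seeing the data, Topsym against none had 2 higher at day 1 and 7 lower at day 3. The edgeR test had 2 higher at day 1 there, and no filter gave 1 higher for the day 3 interaction. The counts of members from these other fits are also given without shares of all genes. The cause was not tested.

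Without single libraries, higher and lower counts ran from 0 to 1 and 7 to 20 at day 1 of SDS alone, 3 to 9 and 14 to 23 at day 3, and 72 to 74 and 2 to 2 at day 5. With Topsym they ran from 1 to 2 and 69 to 72, 2 to 5 and 58 to 67, and 74 to 75 and 2 to 2 at those days. For Topsym against none they ran from 59 to 70 and 1 to 1 at day 0, 1 to 1 and 10 to 29 at day 1, 11 to 18 and 3 to 4 at day 3, and 71 to 72 and 0 to 1 at day 5. The interactions ran from 1 to 1 and 62 to 70, 0 to 1 and 46 to 60, and 9 to 16 and 4 to 15. No share of all genes is given beside the counts without single libraries. For Rps27 in Topsym against none at day 3 the difference ran from -0.43 without Topsym day 3 replicate 1, reversed, to 0.66 without Topsym day 3 replicate 2.

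The mean read share without the 10 highest genes in the total was 6.25, 3.67, 4.32 and 8.36% at days 0, 1, 3 and 5 with Topsym and 4.50, 4.24, 3.97 and 6.59% in SDS alone. Over nuclear protein-coding genes it was 3.61, 4.25 and 7.58% at days 1, 3 and 5 with Topsym and 4.44, 4.17, 3.93 and 6.14% at days 0, 1, 3 and 5 of SDS alone. Without the paralogs it was 3.42, 4.01 and 7.12% at days 1, 3 and 5 with Topsym. Of 4357 other values of single genes, 4117 kept direction and call, 174 lost the call, 59 gained it and 7 reversed. Of 216 medians, 7 moved beyond their spread and none of the 216 reversed.

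The replicate numbers are shared across groups, but same-numbered libraries did not deviate together: over 28 pairs of groups r ran from -0.03 to 0.03, with 0 over 0.1. With the replicate number as a block, counts of higher and lower genes were 1 and 17 at day 1 and 74 and 2 at day 5 of SDS alone, 74 and 1 for Topsym against none at day 0 and 12 and 10 for the day 5 interaction. No share of all genes is given for the fit with that block. Depth limits Rpl24, Rps10 and Rpl39l, with means over all libraries under 100.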
